A study of Arabidopsis thaliana with 12 samples.

Results

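The 10 genes described here form the core of abscisic acid synthesis and signalling in Arabidopsis thaliana. They were named by locus, with earlier results of these data known, and are 10 of the 28775 loci in the count data. NCED3 makes the hormone's precursor, the protein phosphatase genes ABI1, ABI2, HAB1, HAI1, HAI2 and HAI3 hold its signal back, and the transcription factor genes ABI5, ABF3 and ABF4 carry it to target genes. The study set out to find genes under the control of GRF1 and GRF3, plant-specific transcription factors (growth-regulating factors) known for their part in leaf size.

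Transcripts were sequenced from whole 14-day-old plants of the Ws strain, grown on MS medium. The 4 genotypes had 3 libraries each. They were wild type (WT), a 35S:GRF1-GFP line (GRF1_OE), a 35S:GRF3-GFP line (GRF3_OE), and plants labelled as a grf1/grf2/grf3 mutant (grf123). The 35S promoter is a viral promoter active in most plant tissues, and the labels did not say how many independent lines stood behind a genotype. Plants grew in complete blocks, but the labels did not tie a library's replicate number to a block, so the p-values below measure only the spread between these libraries. In RNA from whole plants, fewer cells of a type and less RNA per cell cannot be told apart.

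Abscisic acid is the hormone of drought, seed maturation and dormancy. When it binds a receptor of the PYR/PYL family, the receptor blocks clade A type 2C protein phosphatases (PP2Cs), which frees SnRK2 kinases to activate bZIP transcription factors of the ABF and ABI5 group. These factors bind the abscisic acid response element (ABRE), whose core is ACGTG, and the PP2C genes are themselves among the hormone's induced targets, so their transcripts are often read as a gauge of the response.

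The promoters of 5 of the genes are printed because these are the genes with the largest changes below, together with HAI3, the third of the HAI phosphatases. Each is the 250 bases before the annotated start of the gene, read 5′ to 3′ on the gene's own strand from the TAIR10.1 assembly, and capitals mark ABRE cores on either strand. The windows are chr3:4834016-4834265 (minus strand) for NCED3, chr5:23896940-23897189 (minus strand) for HAI1 and chr1:2282829-2283078 (minus strand) for HAI2. They are chr2:12608425-12608674 (plus strand) for HAI3 and chr2:15207637-15207886 (minus strand) for ABI5.
NCED3: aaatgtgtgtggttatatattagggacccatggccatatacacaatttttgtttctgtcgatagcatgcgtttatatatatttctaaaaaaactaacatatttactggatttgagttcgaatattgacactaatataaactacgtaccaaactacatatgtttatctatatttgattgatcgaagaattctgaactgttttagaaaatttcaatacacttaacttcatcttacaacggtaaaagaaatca
HAI1: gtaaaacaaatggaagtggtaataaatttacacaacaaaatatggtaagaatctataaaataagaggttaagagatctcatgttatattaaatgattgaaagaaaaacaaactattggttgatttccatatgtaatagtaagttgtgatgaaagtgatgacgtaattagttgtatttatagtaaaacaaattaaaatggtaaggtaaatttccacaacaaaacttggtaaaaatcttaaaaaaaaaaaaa
HAI2: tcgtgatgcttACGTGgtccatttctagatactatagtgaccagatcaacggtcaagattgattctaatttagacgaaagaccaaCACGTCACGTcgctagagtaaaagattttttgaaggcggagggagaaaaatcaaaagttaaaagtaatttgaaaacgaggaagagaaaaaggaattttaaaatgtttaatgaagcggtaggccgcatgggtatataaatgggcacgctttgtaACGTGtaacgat
HAI3: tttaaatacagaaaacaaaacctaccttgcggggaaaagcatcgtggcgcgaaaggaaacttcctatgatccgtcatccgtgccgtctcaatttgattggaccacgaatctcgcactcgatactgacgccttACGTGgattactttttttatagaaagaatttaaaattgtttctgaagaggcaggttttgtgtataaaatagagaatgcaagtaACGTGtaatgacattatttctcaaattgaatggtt
ABI5: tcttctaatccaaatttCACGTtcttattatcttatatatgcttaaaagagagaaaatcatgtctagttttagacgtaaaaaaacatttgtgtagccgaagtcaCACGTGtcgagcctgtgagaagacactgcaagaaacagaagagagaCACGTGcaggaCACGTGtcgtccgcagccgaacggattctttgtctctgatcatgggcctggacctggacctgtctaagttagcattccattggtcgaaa

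HAI2 had 4 ABRE cores in this window, of which the adjoining pair in a single capital run lies 165 and 160 bases before the start. HAI3 had 2. ABI5 had 7, because each of its 3 G-boxes (CACGTG, a palindrome) counts as a core on both strands. NCED3, HAI1, ABI1 and ABI2 had none, and HAB1, ABF3 and ABF4 had 1 each. Of 26709 promoters of the same length, 23.1% held at least 1 ABRE core, 8.97% held 2 or more and 6.58% held a G-box. With 1000 bases before the start, HAI1 still had no ABRE core, against 54.6% of promoters with at least 1, while NCED3, ABI1 and ABI2 had 1 each and HAB1 and HAI2 had 6 each. TGTCAG, a motif reported for GRF proteins, was in none of the 10 windows of 250 bases, where 5.28% of promoters held it. It was in the 1000 bases of ABI2 and ABI5, against 20.4% of promoters. The drought element core CCGAC was in the 250 bases of ABF4 alone among the 10 (11.9% of promoters), and the evening element AAAATATC in those of ABI2 alone (5.96%).

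The targeted genes were read first, as a check of the labels. GRF1 stood at 149.9 ± 35.1 CPM (CPM is the count scaled to library size with TMM factors; mean ± SD, n = 3) in GRF1_OE against 17.1 ± 1.57 in WT. GRF3 stood at 209.9 ± 13.7 CPM in GRF3_OE against 22.5 ± 6.78 in WT. In the libraries labelled grf123, GRF2 was at 0.929 ± 0.253 CPM against 11.05 ± 2.35 in WT and GRF1 at 8.58 ± 1.25, while GRF3 was at 22.7 ± 2.62, a log2 difference from WT of 0.08 ± 0.16 (SE; edgeR adjusted p = 0.848). The GRF3 counts go against this label, so comparisons below are with the libraries labelled grf123. The labels do not say where each mutation lies, and counts over a whole gene check it only in part. GRF2 was also low in both overexpressors, at 0.742 ± 0.493 CPM in GRF1_OE and 0.87 ± 0.275 in GRF3_OE. GRF1 was low in GRF3_OE as well, at 8.85 ± 0.153 CPM. Its log2 difference there was -0.92 ± 0.18 from WT (edgeR adjusted p = 0.0026) and -0.01 ± 0.19 from the libraries labelled grf123 (adjusted p = 0.978). Low GRF1 and GRF2 thus do not set the grf123 libraries apart from GRF3_OE, and the reason was not tested. Gene counts per library ran from 2820223 to 14277574, and WT replicate 3 was the shallowest. Leaf and root markers were present in every library, as the whole-plant label has it.

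Of the 10 genes, 9 had enough counts to be tested among 17938 genes, and HAI3 did not. In GRF1_OE against WT, 6 of the 9 were lower and 1 (ABI5) was higher at an adjusted p under 0.05, where 11.8% of all tested genes were lower and 10% higher. In GRF3_OE against WT, 5 of the 9 were lower and none was higher, against 6.34% and 6.07% of all genes. In the libraries labelled grf123 against WT, 1 of the 9 (ABI5) was higher and none was lower, against 2.11% and 2.77%. The median log2 fold change of the 9 genes was -0.82 in GRF1_OE, -0.50 in GRF3_OE and 0.08 in the libraries labelled grf123. Over all tested genes the corresponding medians were -0.00, 0.00 and 0.01. These comparisons share the WT libraries. The 10 genes were chosen with earlier results of these data known, so these shares do not measure an unbiased excess. The counts moved when single libraries were left out. The lower genes in GRF1_OE numbered 4 without WT replicate 2 and 5 without WT replicate 3 or any overexpressor library, and none was higher without WT replicate 1. Those in GRF3_OE numbered 4 without WT replicate 2, WT replicate 3 or any GRF3_OE library. For the libraries labelled grf123, no member was called without WT replicate 1, WT replicate 3, grf123 replicate 2 or grf123 replicate 3, and 3 were higher without grf123 replicate 1.

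A measure of library quality split the same way as the lower genes. Alignments that were not unique took 54.4 to 63.6% of all counted alignments in the 6 overexpressor libraries and 64.1 to 73.4% in the 6 others, and alignments outside the gene counts in all took 57.6 to 65.8% and 67.8 to 76.9%. The share of gene counts at the 18S ribosomal RNA locus was 13.1 to 19.4% in the overexpressors and 18 to 31.8% in the others, which overlap. The libraries closest in the not-unique share across this split, GRF1_OE replicate 1 (63.6%) and WT replicate 2 (64.1%), had HAI1 at 3.36 and 10.8 CPM and HAI2 at 1.76 and 10.9 CPM. The part of library quality in the differences from WT was not tested.

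**Figure D1:**
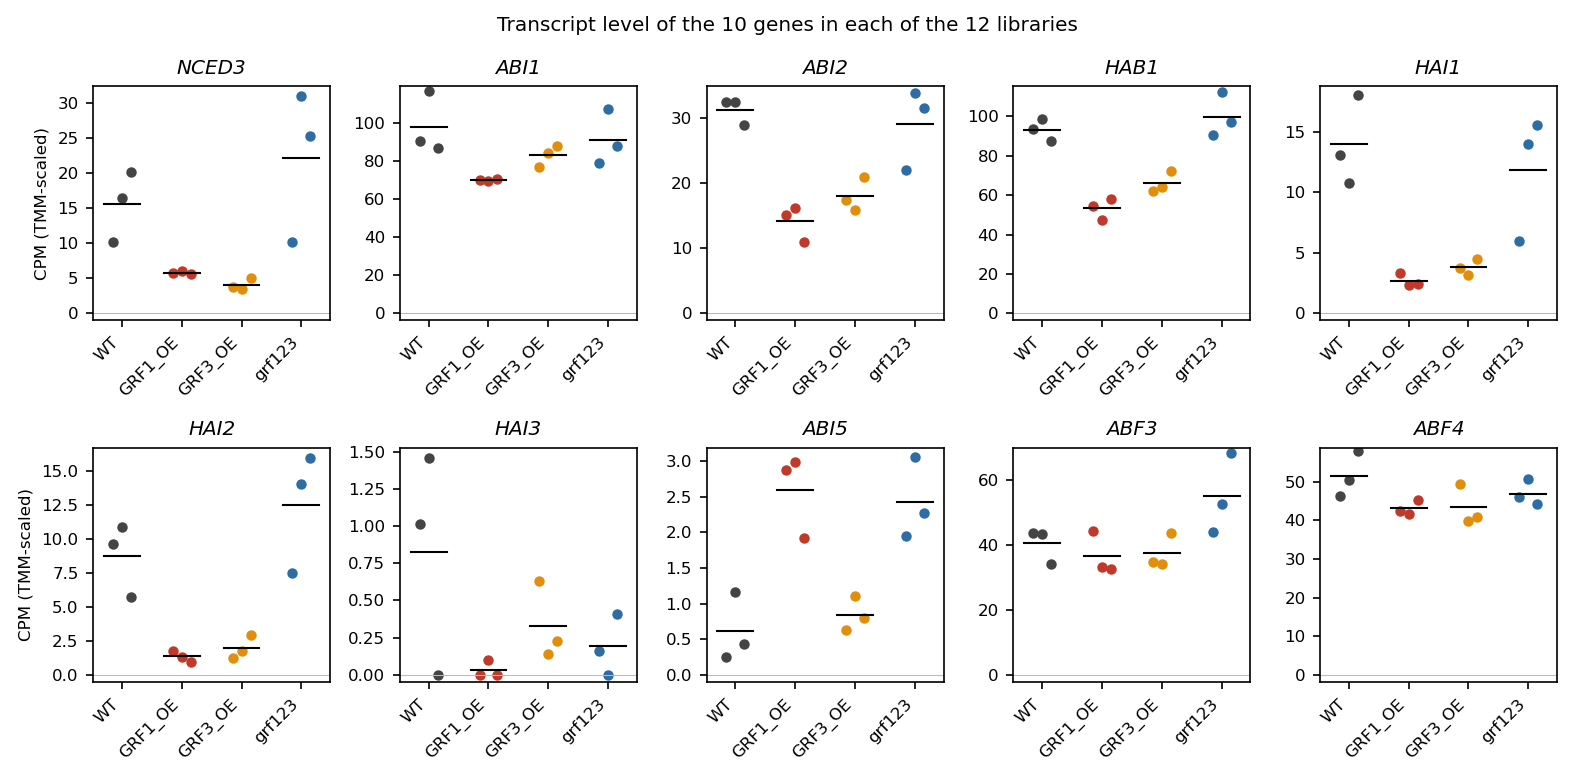
Level of each of the 10 genes in CPM (TMM-scaled) in each of the 12 libraries, by genotype. Points are libraries and black bars are means of 3. NCED3, ABI2, HAB1, HAI1 and HAI2 lay below every WT library in all 6 overexpressor libraries, and ABI5 lay above every WT library in GRF1_OE and in the libraries labelled grf123.

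NCED3 (AT3G14440, chr3:4831286-4834015, minus strand, a gene of 1 exon) encodes the 9-cis-epoxycarotenoid dioxygenase that cleaves the carotenoid precursor, the rate-limiting step of abscisic acid synthesis in drought. Its level was 10.2, 16.4 and 20.2 CPM in the WT replicates (80, 113 and 46 counts), and 5.75, 6.07 and 5.58 CPM in GRF1_OE. It was 3.77, 3.44 and 4.97 CPM in GRF3_OE and 10.2, 31.1 and 25.4 CPM in the libraries labelled grf123. All 6 overexpressor libraries were below all 6 others, and the WT and grf123 ranges overlapped. The log2 fold change against WT was -1.33 ± 0.41 in GRF1_OE (edgeR adjusted p = 0.0423) and -1.83 ± 0.43 in GRF3_OE (adjusted p = 0.0227). These fitted changes correspond to 39.8% and 28.1% of the WT level.

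Both NCED3 calls against WT depended on single libraries. In GRF1_OE, the adjusted p was 0.135 without WT replicate 2, 0.0973 without WT replicate 3, and 0.122, 0.106 and 0.101 without GRF1_OE replicate 1, 2 or 3. It was 0.0605, 0.0612 and 0.0549 without GRF3_OE replicate 1, 2 or 3, and 0.0717 with no filter on counts. In GRF3_OE, it was 0.0784 without WT replicate 2, 0.0548 without WT replicate 3, and 0.066, 0.0839 and 0.0542 without GRF3_OE replicate 1, 2 or 3. Removing a trend with transcript length gave 0.0888 in GRF1_OE and 0.0543 in GRF3_OE. In the libraries labelled grf123, NCED3 differed from WT by 0.57 ± 0.36 (adjusted p = 0.447), and without grf123 replicate 1, the lowest of the 3, by 0.91 (adjusted p = 0.00768).

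HAI1 and HAI2 fell furthest of the 9 genes in GRF1_OE. HAI1 (AT5G59220, chr5:23894404-23896939, minus strand, 4 exons) encodes a PP2C of the strongly abscisic acid-induced HAI group, which acts in responses to low water potential. It stood at 13.1, 10.8 and 18 CPM in WT, 3.36, 2.37 and 2.39 CPM in GRF1_OE and 3.77, 3.17 and 4.52 CPM in GRF3_OE. The libraries labelled grf123 stood at 6.01, 14 and 15.5 CPM. Every overexpressor library was below every library of WT and grf123. The log2 fold change against WT was -2.31 ± 0.33 in GRF1_OE (edgeR adjusted p = 9.73e-05) and -1.78 ± 0.31 in GRF3_OE (adjusted p = 0.00151). These fitted changes correspond to 20.2% and 29.2% of the WT level. For the libraries labelled grf123 the log2 fold change was -0.14 ± 0.27 (adjusted p = 0.846). This small difference was above 0 without WT replicate 3 (0.01) and without grf123 replicate 1 (0.18).

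HAI2 (AT1G07430, chr1:2280746-2282828, minus strand, 3 exons) belongs to the same PP2C group. It stood at 9.65, 10.9 and 5.71 CPM in WT (76, 75 and 13 counts), 1.76, 1.34 and 0.957 CPM in GRF1_OE (11, 13 and 6 counts) and 1.26, 1.79 and 2.94 CPM in GRF3_OE. It reached 7.47, 14 and 16 CPM in the libraries labelled grf123. The overexpressor libraries again lay below all the others. The log2 fold change against WT was -2.77 ± 0.36 in GRF1_OE (edgeR adjusted p = 2.69e-05) and -2.16 ± 0.34 in GRF3_OE (adjusted p = 0.00066). It was 0.44 ± 0.27 in the libraries labelled grf123 (adjusted p = 0.404). The fitted changes in GRF1_OE and GRF3_OE correspond to 14.6% and 22.3% of the WT level.

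HAI3 (AT2G29380, chr2:12608675-12610350, plus strand, 3 exons), the remaining HAI phosphatase, was barely detected. The WT replicates had 8, 10 and 0 counts and the GRF1_OE replicates 0, 1 and 0. The GRF3_OE replicates had 4, 1 and 2 counts, and those labelled grf123 had 1, 0 and 6. Its WT total of 18 counts came from replicates 1 and 2. Relative to WT, with library size taken into account, the counts gave a ratio of 0.0425 in GRF1_OE (exact 95% interval 0.00102 to 0.269, from 1 count). The ratio was 0.294 in GRF3_OE (0.104 to 0.739) and 0.276 in the libraries labelled grf123 (0.0974 to 0.692), from 7 counts each. These intervals cover counting error only, not the spread between libraries, and the depth does not support more than that.

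ABI1, ABI2 and HAB1 are the PP2C genes first found through abscisic acid-insensitive mutants and their homologs, and per kilobase of exon their transcripts were more abundant than those of the HAI genes. ABI2 (AT5G57050, chr5:23087122-23089631, plus strand, 3 exons) stood at 32.5, 32.5 and 29 CPM in WT, 15.2, 16.2 and 11 CPM in GRF1_OE, 17.4, 15.8 and 21 CPM in GRF3_OE and 22.1, 33.8 and 31.6 CPM in the libraries labelled grf123. The overexpressor libraries were below all WT and grf123 libraries, the closest being GRF3_OE replicate 3 and grf123 replicate 1. ABI2 changed by -1.15 ± 0.16 on the log2 scale in GRF1_OE (edgeR adjusted p = 4.34e-05) and by -0.80 ± 0.16 in GRF3_OE (adjusted p = 0.00279). These fitted changes correspond to 45.2% and 57.4% of the WT level.

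HAB1 (AT1G72770, chr1:27389948-27393327, plus strand, 4 exons) stood at 93.5, 98.8 and 87.4 CPM in WT, 54.7, 47.4 and 58 CPM in GRF1_OE and 62.3, 64 and 72.1 CPM in GRF3_OE. The libraries labelled grf123 stood at 90.3, 112 and 96.9 CPM. The 6 overexpressor libraries did not reach the lowest WT or grf123 library. With 199 to 1412 counts a library, it was measured more closely than the HAI genes, and it changed by -0.82 ± 0.11 in GRF1_OE (edgeR adjusted p = 1.12e-05) and -0.50 ± 0.10 in GRF3_OE (adjusted p = 0.00377).

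ABI1 (AT4G26080, chr4:13219915-13222376, minus strand, 4 exons) stood at 90.3, 117 and 86.5 CPM in WT, 70.2, 69.2 and 70.3 CPM in GRF1_OE and 76.7, 84.1 and 87.8 CPM in GRF3_OE. Those labelled grf123 stood at 78.8, 107 and 87.8 CPM. Only GRF1_OE lay wholly below WT. The change there was -0.50 ± 0.12 (edgeR adjusted p = 0.00371), and without WT replicate 2, the highest library of all, the adjusted p was 0.0568. In GRF3_OE it was -0.25 ± 0.12 (adjusted p = 0.159). Against WT, the libraries labelled grf123 gave -0.13 ± 0.12 for ABI1, -0.13 ± 0.16 for ABI2 and 0.08 ± 0.10 for HAB1, with adjusted p-values of 0.621, 0.725 and 0.728. The first was 0.03 without WT replicate 2 and the second was 0.03 without grf123 replicate 1.

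**Figure D2:**
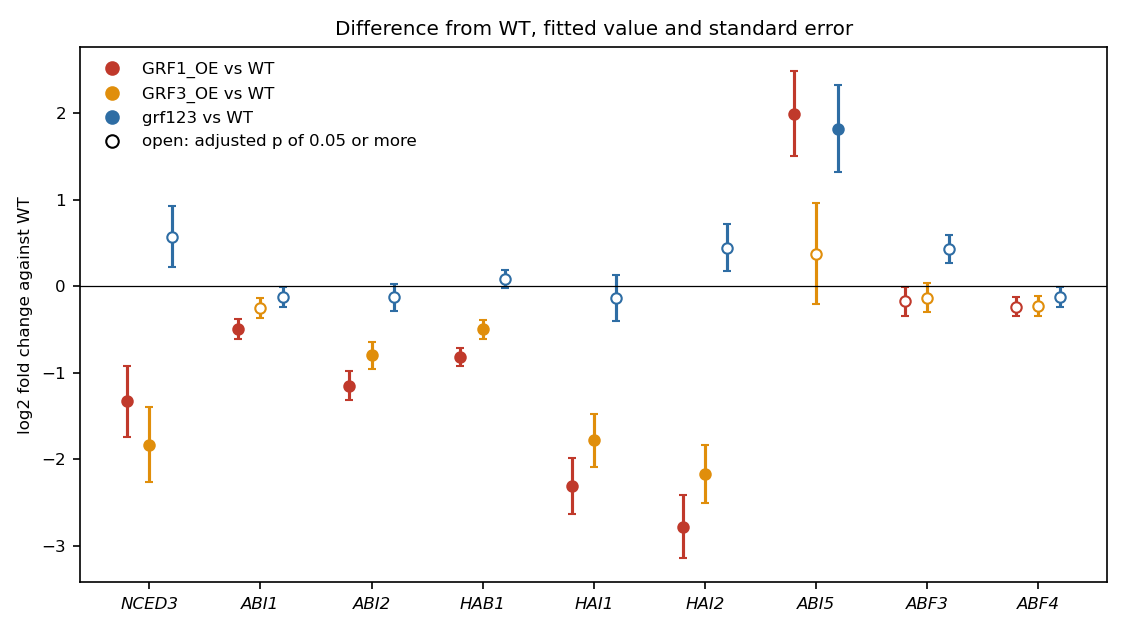
Log2 fold change against WT of the 9 tested genes, with standard errors, in GRF1_OE, GRF3_OE and the libraries labelled grf123. Filled points have an edgeR adjusted p under 0.05. HAI2 had the lowest value in both overexpressors, and ABI5 was the only gene with filled points above 0.

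ABI5 (AT2G36270, chr2:15204659-15207636, minus strand, 4 exons) is a bZIP factor best known for holding back germination and early seedling growth, and it moved the other way. It was scarce. WT had 2, 8 and 1 counts (0.254, 1.16 and 0.439 CPM) and GRF1_OE had 18, 29 and 12 (2.88, 2.98 and 1.91 CPM). GRF3_OE had 4, 8 and 7 counts (0.628, 1.1 and 0.791 CPM), and the libraries labelled grf123 had 12, 10 and 33 (1.95, 3.05 and 2.27 CPM). GRF1_OE and grf123 libraries were all above the WT and GRF3_OE libraries, which overlapped each other. ABI5 rose by 1.99 ± 0.49 in GRF1_OE (edgeR adjusted p = 0.00517) and by 1.82 ± 0.50 in the libraries labelled grf123 (adjusted p = 0.0347), and differed by 0.38 ± 0.59 in GRF3_OE (adjusted p = 0.727). The gene lies 62.5 kb from GRF3 on chromosome 2.

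With so few counts, these ABI5 calls rested on single libraries. In GRF1_OE the log2 fold change was 1.43 without WT replicate 1 (adjusted p = 0.0583) and 3.07 without WT replicate 2. In the libraries labelled grf123 the adjusted p was 0.189 without WT replicate 1, 0.0675 without WT replicate 3, and 0.0827 and 0.121 without grf123 replicate 2 or 3. It was 0.0736 by DESeq2 and 0.0787 in a fit of the 6 compared libraries alone. The difference in GRF3_OE had the opposite sign, -0.19, without WT replicate 1.

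ABF3 and ABF4 are among the bZIP factors that carry abscisic acid responses of vegetative tissue in drought. ABF3 (AT4G34000, chr4:16295334-16298285, plus strand, 5 exons) stood at 43.8, 43.5 and 34.3 CPM in WT, 44.4, 33.3 and 32.5 CPM in GRF1_OE and 34.8, 34.3 and 43.6 CPM in GRF3_OE. Those labelled grf123 had 44.2, 52.7 and 68.3 CPM. The overexpressors overlapped WT, with log2 differences of -0.18 ± 0.17 and -0.13 ± 0.16 (edgeR adjusted p = 0.481 and 0.647). The libraries labelled grf123 were all above WT, by 0.43 ± 0.16 (adjusted p = 0.15). Without grf123 replicate 1 that difference was 0.57 (adjusted p = 0.0288).

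ABF4 (AT3G19290, chr3:6687042-6690123, plus strand, 4 exons) had nearly level values, 46.2, 50.5 and 58 CPM in WT and 39.8 to 50.6 CPM in the other 9 libraries. Its log2 differences from WT were -0.24 ± 0.11 in GRF1_OE, -0.23 ± 0.11 in GRF3_OE and -0.12 ± 0.11 in the libraries labelled grf123 (edgeR adjusted p = 0.135, 0.18 and 0.612). Exons of ABF4 share 672 bases with genes on the opposite strand, and those of ABF3 share 24. The sources used here do not say whether reads were counted by strand, which leaves the counts of ABF4 in particular uncertain.

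Per kilobase of exon, where levels of different genes can be compared, ABI1 was highest in all 4 genotypes. In WT it stood at 45.1 ± 7.63 CPM per kb, followed by HAB1 (33.4 ± 2.05), ABF4 (25.6), ABF3 (17.2) and ABI2 (13.8). HAI1 (7.15), NCED3 (5.71) and HAI2 (4.59) followed, and HAI3 (0.551) and ABI5 (0.319) were lowest. In GRF1_OE the levels per kb of HAI1 and ABI5 lay side by side, at 1.39 ± 0.29 and 1.33 ± 0.303 CPM per kb, and HAI2 was below both at 0.709 ± 0.21. HAB1 (19.1 ± 1.95) and ABF4 (21.4 ± 0.938) were likewise within their spread of each other there. In GRF3_OE, HAI1 (1.96 ± 0.348) and NCED3 (1.49 ± 0.296) were neighbours, and in the libraries labelled grf123 so were NCED3 (8.15 ± 3.95), HAI2 (6.56 ± 2.34) and HAI1 (6.07 ± 2.62), with overlapping libraries.

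Set directly against each other, the overexpressors differed in none of the 9 genes at an adjusted p under 0.05, where 0.485% of all tested genes were higher in GRF1_OE and 0.652% lower. ABI5 came closest, higher in GRF1_OE by 1.62 ± 0.43 on the log2 scale with no overlap of libraries (edgeR adjusted p = 0.0645). It passed in a fit of the 6 compared libraries (adjusted p = 0.0295) and without WT replicate 1 or WT replicate 2 (0.0491 each). HAB1 and ABI1 were lower in every GRF1_OE library than in every GRF3_OE library, with log2 differences of -0.32 ± 0.11 and -0.25 ± 0.12 (adjusted p = 0.188 and 0.455). NCED3 went the other way, higher in every GRF1_OE library by 0.50 ± 0.47 (adjusted p = 0.809). A missed threshold does not show that the genes were at the same level in both lines.

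Against the libraries labelled grf123, 7 of the 9 genes were lower in GRF1_OE and none was higher, where 9.67% and 7.94% of all tested genes were. HAI2 differed most, by -3.22 ± 0.34 (edgeR adjusted p = 2.12e-06), a fitted level 10.7% of that in the grf123 libraries. It was followed by HAI1 at -2.17 ± 0.32 (adjusted p = 0.00014) and NCED3 at -1.90 ± 0.38 (adjusted p = 0.00699). ABI2 was at -1.02 ± 0.16 (adjusted p = 0.000132) and HAB1 at -0.90 ± 0.11 (adjusted p = 2.48e-06). ABF3 was at -0.61 ± 0.16 (adjusted p = 0.0135), with adjusted p-values of 0.0658, 0.0593 and 0.0793 without GRF1_OE replicate 2, GRF1_OE replicate 3 or grf123 replicate 3. ABI1 was at -0.37 ± 0.12 (adjusted p = 0.0278), with 0.073, 0.0815 and 0.067 without GRF1_OE replicate 1, 2 or 3 and 0.169 without grf123 replicate 2. With a trend in transcript length removed, ABF3 had 0.0563 and ABI1 0.0637. ABI5, at 0.17 ± 0.37, was level between these genotypes within its error (adjusted p = 0.787).

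In GRF3_OE, too, 7 of the 9 genes were lower than in the libraries labelled grf123 and none was higher, against 7.38% and 7.53% of all tested genes. HAI2 was again first, at -2.61 ± 0.32 (edgeR adjusted p = 1.8e-05), followed by NCED3 at -2.40 ± 0.40 (adjusted p = 0.00315) and HAI1 at -1.64 ± 0.30 (adjusted p = 0.00118). ABI2 was at -0.67 ± 0.16 (adjusted p = 0.00557) and HAB1 at -0.58 ± 0.10 (adjusted p = 0.000496), while ABI1 did not pass (-0.12 ± 0.11, adjusted p = 0.507). ABI5 was lower, at -1.44 ± 0.44 (adjusted p = 0.0277). Its adjusted p was 0.0877 and 0.0958 without GRF3_OE replicate 1 or 3, 0.0767 and 0.0701 without grf123 replicate 2 or 3, and 0.0699 by DESeq2. ABF3 was at -0.57 ± 0.16 (adjusted p = 0.0226), with 0.0805 and 0.0944 without GRF3_OE replicate 1 or 2, 0.124 without grf123 replicate 3 and 0.068 with the length trend removed. These comparisons share the grf123 libraries.

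Seed transcripts also differed between genotypes, though not in the same split, as a grf123 library was as low as the overexpressors. The summed level of 11 seed markers (cruciferins, 2S albumins and oleosins) was 10.8, 64 and 29 CPM in WT, and all 11 had counts there. It was 1.76 to 2.06 CPM in GRF1_OE, where 6 of 11 markers had counts and CRU2, CRU3, SESA1, SESA3 and SESA4 were at 0 in all 3 libraries, and 2.26 to 3.3 CPM in GRF3_OE, with 7 of 11. It was 2.11, 24.1 and 41.3 CPM in the libraries labelled grf123, also with 7 of 11. There CRU2, SESA1, SESA3 and SESA4 were at 0 in all 3 libraries, and CRU3 was at 0.162, 13.1 and 24.7 CPM. NCED3, HAI1 and HAI2 were lowest among the grf123 libraries in replicate 1, the library low in seed markers. So were ABI1, ABI2, HAB1, ABI5 and ABF3. In that library HAI1 was at 6.01 CPM, HAI2 at 7.47 and NCED3 at 10.2, each above the highest of the 6 overexpressor libraries, which were 4.52, 2.94 and 6.07 CPM. HAB1 (90.3 CPM) was also above them all, and ABI2 narrowly (22.1 against 21 CPM in GRF3_OE replicate 3). ABI1, at 78.8 CPM, was below GRF3_OE replicates 2 and 3 (84.1 and 87.8 CPM), and ABF3, at 44.2 CPM, was below GRF1_OE replicate 1 (44.4 CPM). The part of seed material in the differences from WT was not tested.

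**Figure D3:**
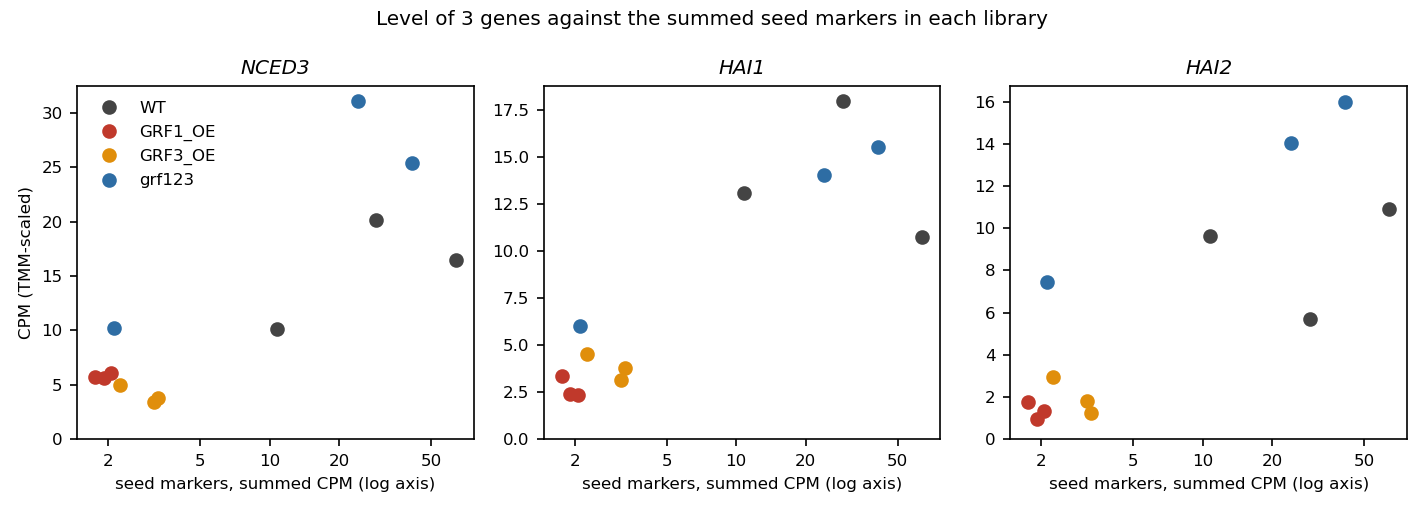
Level of NCED3, HAI1 and HAI2 in CPM against the summed CPM of 11 seed markers (log axis), a point per library, coloured by genotype. The overexpressor libraries lie at 1.76 to 3.3 CPM of seed markers and grf123 replicate 1 lies among them at 2.11, above them in all 3 genes.

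Markers of other tissues, of handling and of the clock were read the same way. The 9 root markers summed to 45.8 to 52.1 CPM in WT and 23.2 to 25.3 CPM in GRF1_OE, while the sums in GRF3_OE were 23 to 45.4 CPM and those of the grf123 libraries 25 to 38.1 CPM. The 7 guard cell markers, of interest because stomata respond to the hormone, summed to 90.5 to 106.7 CPM in WT. The sums were 88.6 to 115.6 CPM in GRF1_OE and 99.4 to 113.7 CPM in GRF3_OE. Those of the grf123 libraries were 77.9 to 88.8 CPM, below every WT library. The 7 phloem and xylem markers, of the tissue where NCED3 is known to be expressed, summed to 200.1 to 237.6 CPM in WT, 121.8 to 203.1 CPM in the overexpressors and 262.2 to 281.2 CPM in the libraries labelled grf123. The 3 touch genes TCH2, TCH3 and TCH4, which handling induces, summed to 72.3, 90.4 and 358.3 CPM in WT replicates 1, 2 and 3. Their sums were 59.2 to 71.3 CPM in GRF1_OE and 84.9 to 104.2 CPM in GRF3_OE. The libraries labelled grf123 had 28.6 to 38.8 CPM, below every other library. Against WT, 2 of 5 tested root markers were lower in each genotype. In GRF1_OE, 3 of the 7 phloem and xylem markers were lower and 1 was higher, and 1 of the 7 guard cell markers was higher. No marker of either kind was called in GRF3_OE or the grf123 libraries. Of the 3 touch genes, 1 was lower in GRF1_OE and 1 in the grf123 libraries. The shares of all tested genes are given with the clock genes. Of 9 clock genes, 5 were higher and 3 lower in GRF1_OE, against 10% and 11.8% of all tested genes. In GRF3_OE 2 were higher and 1 lower, against 6.07% and 6.34%. None was called in the libraries labelled grf123, against 2.11% and 2.77%. The 5 green leaf markers summed to 16063 to 18570 CPM in WT and 14640 to 17811 CPM in the other genotypes. Of these markers, 3 were lower in GRF1_OE, 1 was lower in GRF3_OE and 1 was higher in the grf123 libraries, beside the same shares. The part of all these markers in the results was not tested.

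The rest of the pathway was read from 9 lists with 76 genes, 60 of them tested. In GRF1_OE 5 were higher and 21 lower than in WT, against 10% and 11.8% of all tested genes. In GRF3_OE 2 were higher and 17 lower, against 6.07% and 6.34%. In the libraries labelled grf123 2 were higher and 10 lower, against 2.11% and 2.77%. These shares also stand beside the counts by role below, and the lists, too, were chosen with earlier results known. Leaving out grf123 replicate 2 or 3 took the count of lower genes in that genotype from 10 to 6. In the same genotype the 2 higher genes became 5 without grf123 replicate 1 and 4 by DESeq2. Without WT replicate 1 or 2 they became 1. The median log2 fold changes of the 60 genes were -0.27, -0.13 and -0.06. PP2Cs and induced targets made up 12 of the 21 lower genes in GRF1_OE and 12 of the 17 in GRF3_OE.

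**Figure D4:**
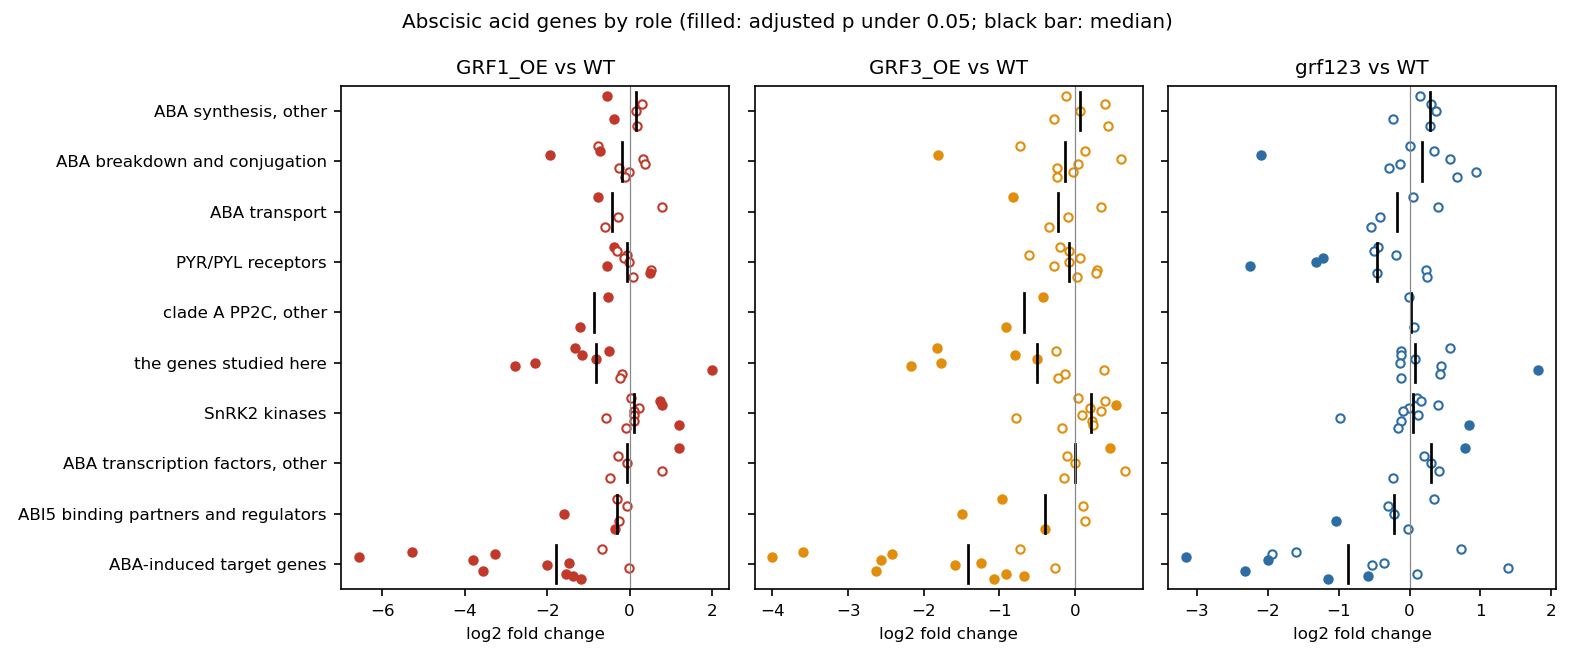
Log2 fold change against WT of the tested abscisic acid genes by role, with the 9 genes of the core on a line of their own. Filled points have an edgeR adjusted p under 0.05 and black bars are medians. Induced targets and PP2Cs lie left of 0 in GRF1_OE and GRF3_OE, SnRK2 kinases have filled points right of 0 only, and PYR/PYL receptors have 3 filled points in the libraries labelled grf123, all left of 0.

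Upstream of the core, 2 of 5 tested synthesis genes besides NCED3 were lower in GRF1_OE, and none was called in the other genotypes (1 was higher in GRF3_OE without GRF1_OE replicate 1). For AAO3, an aldehyde oxidase of the last step, the adjusted p was 0.0588 without GRF1_OE replicate 3 and 0.775 with the length trend removed, which leaves 1. ABA1, the zeaxanthin epoxidase, was at 527, 532 and 436 CPM in WT and 299, 352 and 368 CPM in GRF1_OE, a log2 fold change of -0.55 ± 0.11 (edgeR adjusted p = 0.00128). Of 8 breakdown and conjugation genes, 2 were lower in GRF1_OE, 1 in GRF3_OE and 1 in the libraries labelled grf123. CYP707A2 was lower in GRF1_OE alone, at 17.4 ± 3.61 CPM against 27.7 ± 8.62 in WT, a call lost in 3 of 20 alternatives. CYP707A3, an 8'-hydroxylase that inactivates the hormone, was lower in all 3 genotypes. Its WT level was 1.9, 3.35 and 11.4 CPM, the last in WT replicate 3, and without that library its adjusted p was 0.0723 in GRF1_OE, 0.139 in GRF3_OE and 0.113 in the libraries labelled grf123. It was also 0.0542 and 0.0612 in GRF1_OE without GRF1_OE replicate 1 or 2, and 0.106 and 0.097 in GRF3_OE without GRF3_OE replicate 1 or 3. For the grf123 libraries it was 0.0524 without WT replicate 2 and 0.0812 to 0.11 without any of their own. In fits of the 6 compared libraries it was 0.0661 in GRF1_OE, 0.137 in GRF3_OE and 0.145 in the grf123 libraries. With the length trend removed it was 0.0643 in GRF3_OE, where DESeq2 gave no adjusted p. ABCG25, an exporter of the hormone, fell by 0.76 ± 0.18 in GRF1_OE and by 0.82 ± 0.18 in GRF3_OE (adjusted p = 0.0039 and 0.00527) among 4 transport genes.

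Of 9 tested PYR/PYL genes, PYL4, PYL5 and PYL6 were lower in the libraries labelled grf123, and none was called in GRF3_OE. PYL6 stood at 17.9, 19.4 and 21.5 CPM in WT and 6.17, 1.52 and 3.64 CPM in the libraries labelled grf123, a log2 fold change of -2.26 ± 0.24 (edgeR adjusted p = 4.52e-06). PYL4 stood at 93.7, 95.2 and 89.1 CPM in WT and 53.8, 33.8 and 32.3 CPM there (-1.22 ± 0.18, adjusted p = 0.00115). The libraries of the 2 groups did not overlap for either gene. PYL5 passed narrowly (-1.31 ± 0.32, adjusted p = 0.0473) and was lost in 12 of 20 alternatives. Among these, the adjusted p was 0.0628 to 0.214 without WT replicate 1, any GRF1_OE library, GRF3_OE replicate 2 or 3, or grf123 replicate 2 or 3. Without grf123 replicate 1, 5 receptor genes were lower. In GRF1_OE, PYL8 was higher (0.49 ± 0.14, adjusted p = 0.016, and 0.103 without WT replicate 1) and 2 receptor genes were lower. Of that pair, PYL6 (-0.56 ± 0.20, adjusted p = 0.0488) was lost in 11 of 20 alternatives and the other gene in 9. Neither was called without WT replicate 1, 2 or 3, without GRF1_OE replicate 2 or 3, without GRF3_OE replicate 1, with upper-quartile factors or by DESeq2.

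Both other tested clade A PP2C genes were lower in both overexpressors. PP2CA, which also regulates guard cell ion channels, was at 46, 47.6 and 71.1 CPM in WT, 24.9, 21 and 23.3 CPM in GRF1_OE and 24.5, 26.8 and 32.4 CPM in GRF3_OE. Its log2 fold changes were -1.21 ± 0.24 and -0.92 ± 0.23 (edgeR adjusted p = 0.00466 and 0.0285), and the second had 0.0512, 0.082 and 0.0897 without WT replicate 2, GRF3_OE replicate 1 or GRF3_OE replicate 2. HAB2, a homolog of HAB1, changed by -0.54 ± 0.11 and -0.42 ± 0.11 (adjusted p = 0.00182 and 0.0173), the second with 0.0982 without GRF3_OE replicate 3 and 0.0969 with the length trend removed. Both were near the WT level in the grf123 libraries, at 54.9 ± 16.3 and 39.8 ± 2.23 CPM.

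Of the 10 SnRK2 kinase genes, none was lower in any genotype. SnRK2.9 stood at 6.86, 7.42 and 11.9 CPM in WT, 17.7, 15.7 and 22 CPM in GRF1_OE and 14.3, 15.9 and 13.5 CPM in the libraries labelled grf123. It was higher by 1.20 ± 0.19 in GRF1_OE (edgeR adjusted p = 0.000101) and by 0.84 ± 0.19 in the grf123 libraries (adjusted p = 0.0116, and 0.0748 and 0.0796 without WT replicate 1 or 2). SnRK2.2 and SnRK2.3, a closely related pair of the kinases that the hormone activates, were higher in GRF1_OE by 0.74 ± 0.13 and 0.78 ± 0.12 (edgeR adjusted p = 0.000476 and 9.04e-05), and SnRK2.3 was higher in GRF3_OE by 0.54 ± 0.12 (adjusted p = 0.00613). SnRK2.3 stood at 20.4, 21.7 and 26.8 CPM in WT, 40.3, 38.3 and 36.4 CPM in GRF1_OE and 31.9, 33.9 and 31.5 CPM in GRF3_OE. ABF1, a homolog of ABF3 and ABF4, was the called gene among 5 other transcription factors. It rose by 1.19 ± 0.13 in GRF1_OE (adjusted p = 9.26e-07) and by 0.78 ± 0.13 in the libraries labelled grf123 (adjusted p = 0.000758), and by 0.46 ± 0.13 in GRF3_OE (adjusted p = 0.0285). The last call was lost without WT replicate 1 or 2 (0.0921 and 0.122) and without GRF3_OE replicate 1 or 3 (0.114 and 0.0686). It was also lost by DESeq2 (0.0572), in the fit of the 6 compared libraries (0.0505) and with the length trend removed (0.0824).

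Among 5 genes for proteins that bind or degrade ABI5, none was higher in any genotype. In GRF1_OE 2 were lower, in GRF3_OE 3 and in the libraries labelled grf123 1. AFP1 was lower in GRF3_OE, at 5.16 ± 1.31 CPM against 10.2 ± 1.05 in WT, and this call held in all 20 alternatives. KEG was lower in both overexpressors, and both calls were lost with the length trend removed. AFP3, which encodes a protein that binds ABI5, was lower, at -1.60 ± 0.42 on the log2 scale in GRF1_OE and -1.50 ± 0.41 in GRF3_OE (edgeR adjusted p = 0.00802 and 0.0196), and without WT replicate 2 the adjusted p was 0.0764 and 0.132. The second was 0.0874 without GRF3_OE replicate 2. AFP4 was lower in the libraries labelled grf123, at -1.04 ± 0.21 (adjusted p = 0.00443). At the end of the pathway, 10 of the 12 tested induced target genes were lower in GRF1_OE, 10 in GRF3_OE and 5 in the libraries labelled grf123, with no target higher. The last count was 2 without grf123 replicate 2, 3 without grf123 replicate 3 and 8 without GRF3_OE replicate 3. In the same genotype, 2 targets were higher without grf123 replicate 1 or by DESeq2, and 1 with the length trend removed. The largest changes were those of LEA7, at -6.56 ± 0.87 in GRF1_OE and -4.002 ± 0.67 in GRF3_OE (edgeR adjusted p = 0.00129 and 0.00808, the second 0.0538 in the fit of the 6 compared libraries), and RD29B, at -5.28 ± 0.71 and -3.60 ± 0.59 (adjusted p = 0.00138 and 0.00727). In GRF3_OE, replicate 3 stood apart, with LEA7 at 3.14, 2.89 and 21.5 CPM and RD29B at 3.3, 1.93 and 14.7 CPM. The RD29B change there ran from -5.05 to -3.17 over the alternatives, with an adjusted p of up to 0.0496. LEA4-5, a late embryogenesis abundant gene of drought, was at 17, 20.8 and 16.2 CPM in WT, 2.08, 1.34 and 0.478 CPM in GRF1_OE, 1.57, 2.75 and 4.52 CPM in GRF3_OE and 3.57, 6.1 and 4.6 CPM in the libraries labelled grf123. All 9 libraries of these genotypes were below WT, with log2 fold changes of -3.79 ± 0.33, -2.57 ± 0.29 and -1.99 ± 0.28 (edgeR adjusted p = 6.95e-08, 1.65e-05 and 9.89e-05).

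The genes whose pattern over the 12 libraries was most like each member were ranked by the root-mean-square difference of standardised log2 CPM, which is 0 for identical patterns. For HAI1, the nearest of 17937 genes were PP2CA (0.200) and the abscisic acid-induced homeobox gene HB-7 (ATHB7, 0.204), followed by DAA1 (0.278). For HAB1 they included CH1, a chlorophyll b synthesis gene (0.216), and P5CS1 (0.246), a proline synthesis enzyme of drought. Among genes with a symbol, the nearest to ABI2 were PUB19 (0.244), a ubiquitin ligase gene, and the heat shock factor gene HSFA6A (0.262). Those nearest to HAI2 were COL4 (0.277) and again PUB19 (0.302). Among the members, HAI1 was at rank 6 for ABI2, HAI2 at rank 8 for HAB1 and ABI2 at rank 8 for HAI1. The member nearest to NCED3 was HAI1, at rank 69. The nearest genes with a symbol to ABI1 (TLP10, 0.457), ABI5 (SYP23, 0.466), ABF3 (GBF3, 0.494) and ABF4 (WES1, 0.431) were more distant. All points share the same libraries and 4 genotypes, so these are descriptions.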

How the data were processed

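Messenger RNA of whole plants was sequenced in 12 libraries, 4 genotypes with 3 each, grouped by sample title. The deposited values are raw read counts per locus, made by the authors with Trimmomatic, TopHat2 2.0.14 on TAIR10 and HTSeq, per the submitters' processing notes. The notes also name DESeq2. The sources used here give neither the strand setting nor the annotation release.

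Rows naming no gene held 57.6 to 76.9% of counts, mostly alignments that were not unique (54.4 to 73.4%), and were left out. Of 28775 loci, 28009 (97.3%) matched RefSeq's TAIR10.1 annotation, which gave symbols, coordinates, exonic lengths and promoters, read from its genome. Reads with several alignments are not counted by HTSeq, so near-identical copies may be undercounted.

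Counts were tested in R 4.3.3 with edgeR 4.0.16 (TMM factors, filterByExpr with minimum count 10 and minimum total 15, robust quasi-likelihood F test) in a single fit of all 12 libraries with genotype as the term, leaving 8 residual degrees of freedom. The common biological coefficient of variation was 0.107. Benjamini-Hochberg adjustment ran over all 17938 genes tested, with calls under 0.05. The standard error is the absolute log2 fold change over the square root of F. The procedure was tested on simulated data. An exact permutation test of 3 against 3 libraries cannot go below p = 0.1 and was not run. Alternatives were no count filter, upper-quartile or RLE factors, 1 CPM in 3 libraries, DESeq2 1.42.0, the 6 compared libraries alone, a replicate block, removal of a trend with transcript length, and leaving out each library.

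The 10 members, the lists and the motifs were chosen with earlier results of these data known. All members are named. Of the other pathway lists, up to 4 genes called against WT could be named, largest first, though not all are. The 3 genes with a symbol nearest each tested member come from standardised log2 CPM with a prior count of 2. CRU3 and the other markers come from marker lists. Reads carry no molecular identifiers, so intervals cover counting error only.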

Additional observations from a re-analysis of the deposited data

How the results depend on the processing

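Of 27 called changes of the tested genes over the 6 comparisons, 18 held in all 20 alternatives and none reversed. The HAI1, HAI2, ABI2 and HAB1 calls in both overexpressors against WT were among the 18, and the calls lost are given with their results. Differences that were not called and changed sign were small apart from ABI5. ABI5 in GRF3_OE against WT was -0.19 without WT replicate 1, with a range of -0.19 to 1.45 over libraries left out, and had no value in the fit of the 6 compared libraries, where it missed the filter. In the libraries labelled grf123 against WT, ABI1 ran from -0.23 to 0.0298, ABI2 from -0.22 to 0.0337 and HAI1 from -0.50 to 0.18. In GRF1_OE against GRF3_OE, ABF3 ran from -0.20 to 0.0843 and ABF4 from -0.0614 to 0.0953, and ABF4 was 0.0032 with RLE factors, 0.0225 with upper-quartile factors, 0.0017 with no count filter, 0.0024 by DESeq2 and 0.0149 with the length trend removed.

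Counts of all genes called moved more. With the length trend removed, 2543 rather than 3911 genes were called in GRF1_OE against WT and 889 rather than 2226 in GRF3_OE against WT. In fits of the 6 compared libraries, 535 rather than 875 were called in the libraries labelled grf123 against WT and 408 rather than 204 in GRF1_OE against GRF3_OE. Over libraries left out, the counts ran from 2494 to 4169 in GRF1_OE against WT (lowest without GRF1_OE replicate 1), 1200 to 2540 in GRF3_OE against WT (lowest without GRF3_OE replicate 2) and 377 to 1026 in the libraries labelled grf123 against WT (lowest without grf123 replicate 3). They ran from 106 to 294 in GRF1_OE against GRF3_OE (lowest without GRF1_OE replicate 2), and against the libraries labelled grf123 from 1989 to 3615 in GRF1_OE and 1652 to 3159 in GRF3_OE. Members called ran from 0 to 3 in the libraries labelled grf123 against WT, with 0 by DESeq2 and in the fit of 6 libraries. They ran from 0 to 1 in GRF1_OE against GRF3_OE, with 1 in the fit of 6. The cause was not tested. Upper-quartile factors turned the majority of calls in GRF1_OE against WT, to 2151 higher and 1768 lower from 1794 and 2117.

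Replicate numbers did not clearly pair the libraries. Correlations of same-numbered libraries, in the variation between libraries and not in the levels themselves, ran from -0.131 to 0.138. Of 18 pairs, 1 was over 0.1, and 4 of 12 libraries correlated best with their own number. WT with GRF3_OE gave 0.138, 0.097 and 0.091 for numbers 1, 2 and 3, and WT with grf123 gave -0.063, 0.028 and -0.131. With the replicate block, 3710, 2017 and 771 genes were called against WT in GRF1_OE, GRF3_OE and the libraries labelled grf123, and 228, 2949 and 2528 in the remaining comparisons. The block changed no count of members called. Depth limits HAI3, ABI5 and HAI2 most.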
